A study of Mus musculus with 6 samples.

Results

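The Hox genes of lumbar sensory ganglia are described here across 6 RNA libraries. The members are all genes whose symbol is Hoxa, Hoxb, Hoxc or Hoxd followed by a number, and the deposited table holds 39 of them, as 86 transcripts, among 54242 gene symbols. None was chosen for its values. The libraries come from dorsal root ganglia (DRG), the swellings beside the spinal cord that hold the cell bodies of sensory neurons, taken at L4-6, the levels that serve most of the hind limb. Of the libraries, 3 are from mice on 10 days of intermittent fasting (fasted) and 3 from mice that ate ad libitum (fed). Both groups are male C57bl/6 mice of 8-10 weeks with no transgene or other agent named, and neurons were enriched from dissociated ganglia on a 15% BSA gradient. The mice were killed after 24 hours, and the labels do not say what these 24 hours follow. The labels leave unsaid if each replicate is 1 animal or pooled animals. A p-value here therefore covers only library-to-library spread, part of which may be technical.

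Hox genes encode homeodomain transcription factors that give cells along the body axis their position. In mammals they lie in 4 clusters, a to d, and genes at corresponding places in different clusters form paralog groups numbered from 1 (anterior) to 13 (posterior). In embryos, low-numbered groups act from the hindbrain downwards and high-numbered groups only in the lumbar, sacral and tail regions, and neurons and glia often keep part of this pattern in adult life. In spinal motor neurons, genes of groups 5 to 8 are known for forelimb levels, group 9 for thoracic levels, and groups 10 and 11 for hind limb and more posterior levels.

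All levels below are TPM, the abundance of a transcript scaled to 1000000 per library: a share of all transcripts in a library, corrected for transcript length, so that levels of different genes can be set side by side. TPM do not preserve the number of reads, so the depth is unknown and counting intervals cannot be given. A gene is called detected when its mean over all 6 libraries reaches 1 TPM. In bulk RNA such as this, fewer cells that use a gene and less RNA per cell cannot be told apart.

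Of the 39 Hox genes, 29 were detected, 13 of them at a mean of 10 TPM or more and 16 between 1 and 10 TPM. Cluster a, on chromosome 6, had 7 of 11 genes detected, cluster b, on chromosome 11, had 8 of 10, cluster c, on chromosome 15, had 7 of 9, and cluster d, on chromosome 2, had 7 of 9. At least 1 TPM in every library was reached by 27 genes, the exceptions among the detected being Hoxc5 and Hoxc11, which lie just above the minimum at means of 1.11 and 1.37 TPM. Below it lay Hoxa2 with a mean of 0.457 TPM. The median level of the detected Hox genes was 7.45 TPM, against 18.1 TPM over all 15097 genes that passed the same minimum, and 7 Hox genes lay above that general median. The highest, Hoxa9, stood at percentile 73.7 of those genes.

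**Figure D1:**
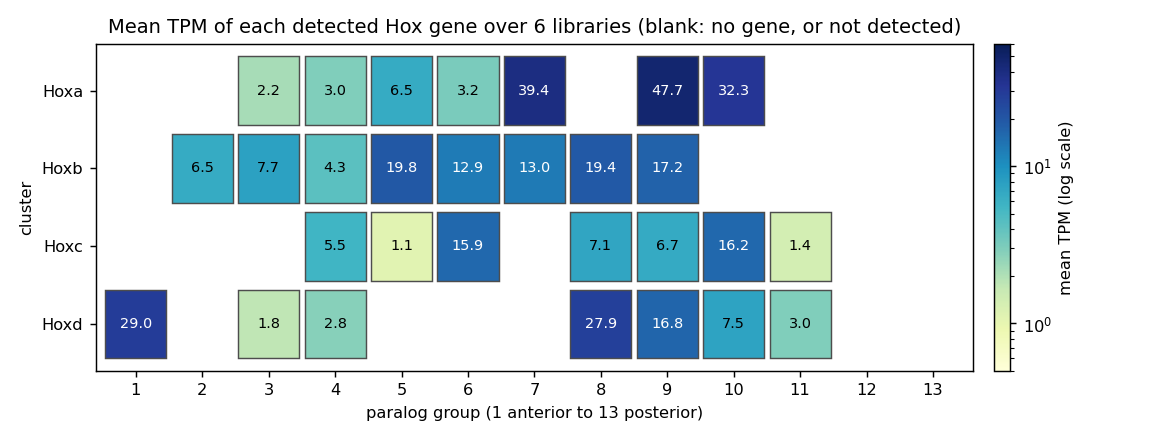
Mean TPM of each of the 29 detected Hox genes over the 6 libraries, with clusters as rows and paralog groups 1 to 13 as columns; colour follows a log scale, blank places have no gene or no detected gene. The darkest boxes are Hoxa9, Hoxa7 and Hoxa10 in cluster a and Hoxd1 and Hoxd8 in cluster d, and groups 12 and 13 are blank throughout.

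Transcript share peaked in the middle and posterior-middle groups. Groups 5 to 8 held 43.9% of the summed Hox TPM (mean of the 6 libraries, range 41.9 to 45.2%) and groups 9 and 10 held 38.1% (36.6 to 38.9%). Groups 1 to 4 held 16.9% (16.3 to 17.2%), and groups 11 to 13 held 1.24% (0.733 to 2.25%). These ranges differ in size: groups 1 to 4 have 12 genes, 5 to 8 have 11, 9 and 10 have 7, and 11 to 13 have 9. By single group, group 9 had the highest share in every library, with a mean of 23.3%. Groups 10, 8 and 7 had means of 14.7, 14.3 and 13.8% with overlapping ranges, so no order is given among them. Counting each gene by its most abundant transcript gave 22.4% for group 9 and 13.01% for group 10, 13.4% for group 8 and 14.8% for group 7. Counting protein-coding transcripts gave 25.2% for group 9, 11.8% for group 10, 15.2% for group 8 and 14.4% for group 7. Between groups 10 and 11 the share dropped to 1.24%, group 12 was listed at 0 in every library, and group 13 came to 0.0022%.

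The clusters contributed unequally. Cluster a held 34.8, 34.2 and 37.3% of the Hox total in fasted libraries and 36.0, 37.4 and 35.1% in fed libraries. Cluster b held 24.9 to 28.1% over the 6 libraries, cluster d 21.8 to 25.3% and cluster c 13.9 to 15.3%. The order of a above b and c below the other 3 held in every library. When each gene was represented by its most abundant transcript alone, the shares were 29.8% for a, 29.1% for b, 26.7% for d and 14.5% for c, which brings a and b close to each other.

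Cluster a was led by 3 neighbouring genes. Hoxa9 (chr6:52223100-52231089, GRCm38, minus strand), known for its part in thoracic and lumbar patterning and in blood stem cells, had 46.7, 43.7 and 54.0 TPM in fasted libraries and 45.7, 50.6 and 45.7 TPM in fed libraries. Hoxa7 (chr6:52214491-52221854), a gene of trunk patterning, had 40.1, 37.7 and 40.5 TPM in fasted libraries and 39.7, 38.6 and 39.9 TPM in fed libraries. Hoxa10 (chr6:52231197-52240854), needed with its paralogs for lumbar motor neuron and hind limb innervation patterns, had 31.0, 32.7 and 35.5 TPM in fasted libraries and 32.3, 29.8 and 32.3 TPM in fed libraries. The ranges of these 3 genes over the libraries do not overlap, so their order was the same in every library, while the fasted and fed values of each gene overlap. Together they made up 31.5% of the Hox total.

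On either side of these genes the cluster was low. Hoxa5, known for lung and phrenic motor neuron development, averaged 6.66 ± 0.503 TPM in fasted libraries and 6.31 ± 0.276 TPM in fed libraries (SD, n = 3 each, as for all such pairs here). Hoxa6 and Hoxa4 had means of 3.15 and 2.96 TPM over the 6 libraries, and Hoxa3, a gene of the pharyngeal arches, 2.18 TPM. Hoxa2, which patterns the hindbrain, stayed below 1 TPM in every library. At the posterior end, Hoxa11, a gene of limb and kidney development, had 0.256, 0.213 and 0.257 TPM in fasted libraries and 0.403, 0.408 and 0.428 TPM in fed libraries. These 2 sets do not overlap, which held with fasted values lower for 5.07% of all tested genes. All 6 values lie below the detection minimum, so the gene was left out of the main test. It entered only the alternative without a minimum level, where 0 of 34 Hox genes passed the adjusted threshold. Hoxa13, known for digit and urogenital development, was listed at 0 in all 6 libraries.

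Cluster d was high at Hoxd1, low over Hoxd3 and Hoxd4, and high again at Hoxd8. Hoxd1 (chr2:74762980-74765142, plus strand), which in mouse is known to act in nociceptive sensory neurons and their central projections, had 28.3, 29.0 and 31.6 TPM in fasted libraries and 29.6, 25.7 and 29.7 TPM in fed libraries. Its paralog Hoxb1, a hindbrain gene, was listed at 0 throughout. Hoxd8 (chr2:74704615-74707933) had 29.5, 27.3 and 26.995 TPM in fasted libraries and 28.5, 26.4 and 28.6 TPM in fed libraries. The ranges of Hoxd1 and Hoxd8 overlap, and neither gene was above the other in every library. The range of Hoxd1 also overlaps that of Hoxa10, but within every library Hoxa10 was above Hoxd1.

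Hoxd9, a gene of lumbosacral and hind limb patterning, averaged 17.4 ± 0.938 TPM in fasted libraries and 16.1 ± 0.798 TPM in fed libraries. Hoxd3 and Hoxd4 lie between Hoxd1 and Hoxd8 and were low, with means of 1.76 and 2.81 TPM. Past Hoxd9 the levels stepped down, with means of 7.45 TPM for Hoxd10 and 2.99 TPM for Hoxd11. Hoxd12 and Hoxd13, genes of digit development, were listed at 0 in all 6 libraries.

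Cluster b was the most even of the 4. Hoxb5 had 22.2, 18.3 and 20.2 TPM in fasted libraries and 20.5, 16.6 and 21.3 TPM in fed libraries, and Hoxb8, whose loss in mouse causes excessive grooming and altered sensory circuits, had 20.7, 18.4 and 20.7 TPM in fasted libraries and 18.4, 16.3 and 21.9 TPM in fed libraries. Hoxb9, Hoxb7 and Hoxb6, all genes of the trunk, had means of 17.2, 13.02 and 12.9 TPM. The ranges of Hoxb5, Hoxb8 and Hoxb9 overlap, but Hoxb9 was below Hoxb5 and Hoxb8 in every library. The order of Hoxb5 and Hoxb8 changed between libraries, as did that of Hoxb6 and Hoxb7, so no order is given within either pair. The anterior genes Hoxb2 and Hoxb3, known from the hindbrain, had means of 6.51 and 7.74 TPM, and Hoxb4, known from blood stem cells, 4.29 TPM. Hoxb13, a gene of tail and prostate, did not exceed 0.034 TPM in any library.

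In cluster c the leading genes were Hoxc10 and Hoxc6. Hoxc10, a gene of lumbar spinal cord identity (chr15:102966796-102971893), had 16.2, 16.7 and 16.02 TPM in fasted libraries and 16.2, 16.1 and 15.8 TPM in fed libraries. Its coefficient of variation (CV, the SD divided by the mean) over the 6 libraries was 1.78%, the lowest of the detected Hox genes. Hoxc6, known from brachial motor neurons, had 15.4, 14.8 and 16.3 TPM in fasted libraries and 16.3, 17.3 and 15.3 TPM in fed libraries. Hoxc8 and Hoxc9, genes of brachial and thoracic motor columns, had means of 7.12 and 6.72 TPM, and Hoxc4 5.50 TPM. Hoxc12 was listed at 0, and Hoxc13, a gene of hair and nails, reached at most 0.016 TPM.

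**Figure D2:**
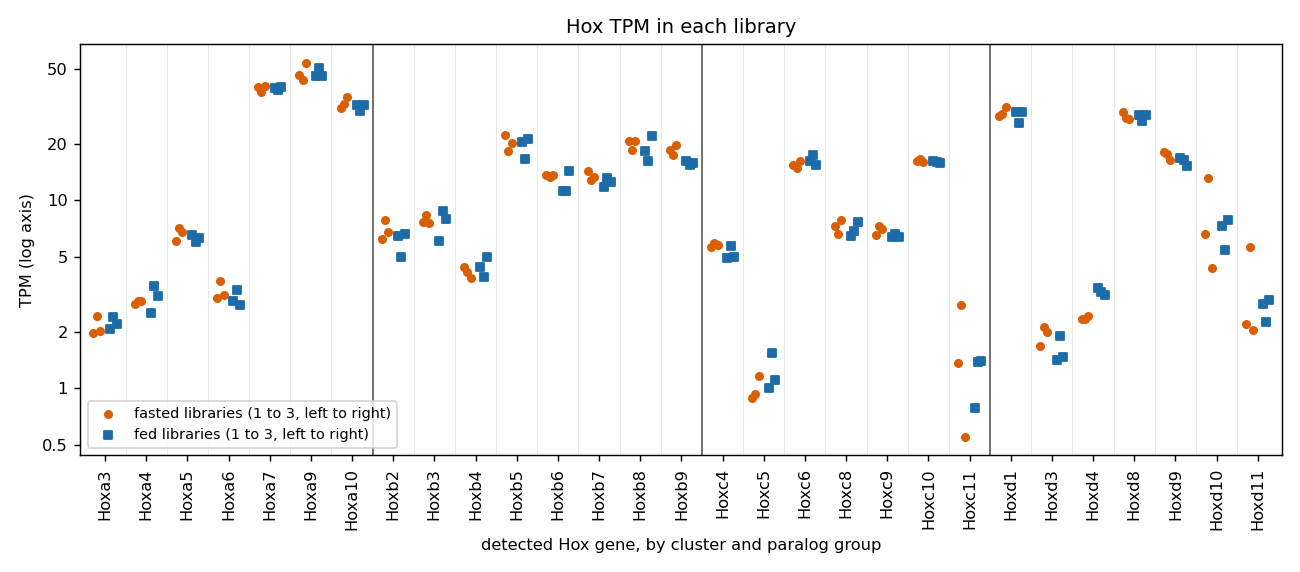
TPM of the 29 detected Hox genes in each library on a log axis, ordered by cluster and paralog group, with fasted libraries as orange circles and fed libraries as blue squares. Most genes form tight clumps in which the groups mix; the spread is visibly wider for Hoxd10, Hoxd11, Hoxc11 and Hoxc5.

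Below the 5 genes at the top, Hoxb5, Hoxb8, Hoxb9, Hoxd9, Hoxc10 and Hoxc6 spanned 14.8 to 22.2 TPM over all libraries, with overlapping neighbours. A gap separates them from the 5 genes at the top, whose lowest value was 25.7 TPM, for Hoxd1 in fed replicate 2. Of the 29 detected genes, 16 had a CV under 10% and 4 had one over 20%. The median CV was 9.50% for the Hox genes, against 7.13% for all tested genes and 14.1% for tested genes with means from 1 to 10 TPM.

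The 4 variable genes were Hoxc11 with a CV of 56.0%, Hoxd11 with 45.4%, Hoxd10 with 41.0% and Hoxc5 with 21.7%. A CV over 30% was found in 3 of the 16 detected Hox genes with means from 1 to 10 TPM, beside 15.5% of all tested genes in that range. The first 3 belong to groups 10 and 11 of clusters c and d, and each was highest in fasted replicate 2. They were set apart after their values were seen, so what follows is a description with no test.

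Hoxd10 (chr2:74691924-74695105), a gene that with Hoxa10 and Hoxc10 shapes lumbar motor neuron identity in mouse, had 6.63, 13.1 and 4.34 TPM in fasted libraries and 7.29, 5.46 and 7.87 TPM in fed libraries. Hoxd11 (chr2:74679557-74687016), a gene of sacral and limb patterning, had 2.21, 5.66 and 2.05 TPM in fasted libraries and 2.82, 2.26 and 2.94 TPM in fed libraries. Hoxc11 (chr15:102954427-102957708), on another chromosome, had 1.37, 2.76 and 0.553 TPM in fasted libraries and 0.781, 1.38 and 1.39 TPM in fed libraries. In each gene fasted replicate 2 was the highest library and fasted replicate 3 the lowest, so the fasted group alone spans the whole range.

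**Figure D3:**
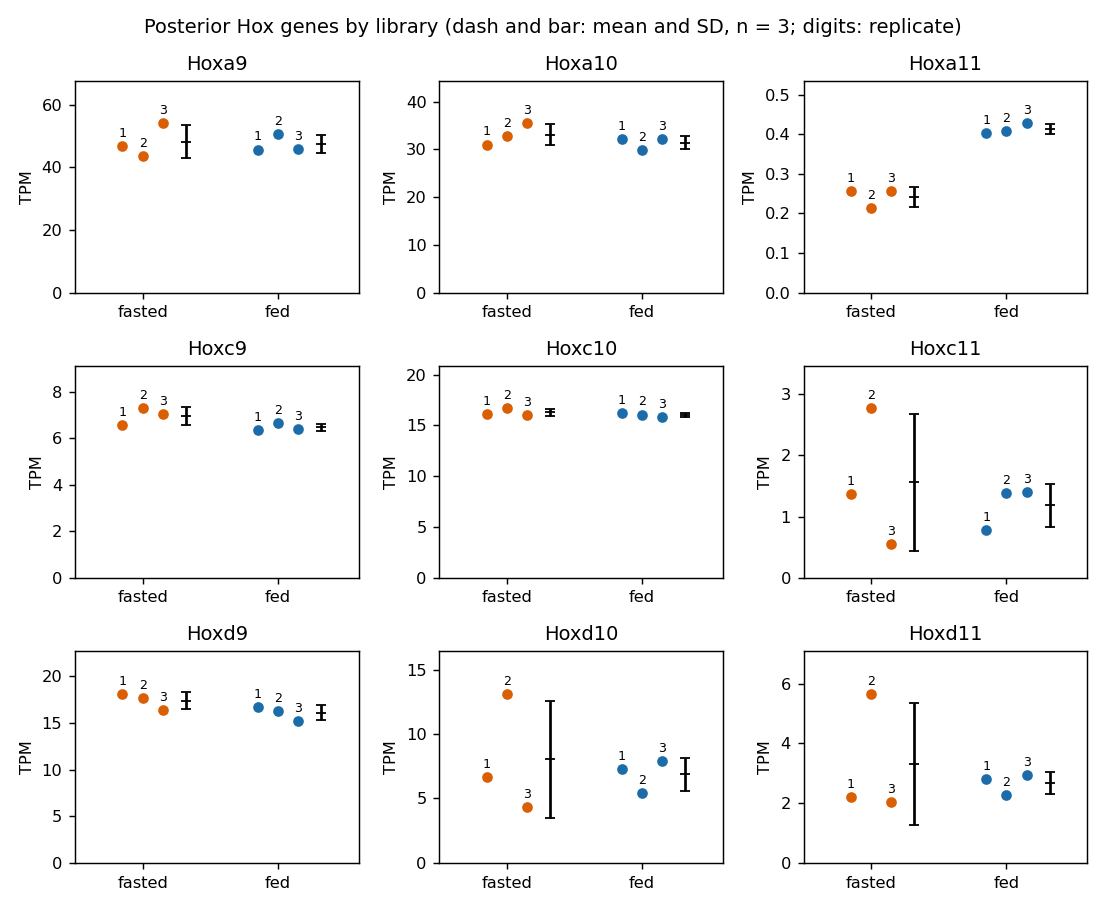
TPM of Hoxa9, Hoxa10, Hoxa11, Hoxc9, Hoxc10, Hoxc11, Hoxd9, Hoxd10 and Hoxd11 in each fasted (left) and fed (right) library on axes that start at 0; digits give the replicate, and the dash and bar give the mean and SD of 3 libraries. Fasted replicate 2 stands above the others for Hoxc11 (2.76 TPM), Hoxd10 (13.1 TPM) and Hoxd11 (5.66 TPM) and within or close to the others for groups 9 and 10 of clusters a and c and for Hoxd9. It is the lowest library for Hoxa11 (0.213 TPM), a gene below the detection minimum.

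Relative to the median of the other 5 libraries, fasted replicate 2 had 2.51 times the level for Hoxd11, 2.02 times for Hoxc11 and 1.98 times for Hoxd10. The other 26 detected Hox genes lay between 0.742 and 1.26 times. Over all genes with such a ratio, 1.74% were at least 1.5-fold above in this library, and the 3 genes ranked 35, 84 and 90 from the top among 15019. In the same library the ratio was 1.08 for Hoxd9, next to Hoxd10, and 1.04 for Hoxc10, next to Hoxc11. Hoxa10, a paralog of Hoxd10 on chromosome 6, had a ratio of 1.02. Hoxa11, which lay below the detection minimum throughout, was lowest in this library, at 0.213 TPM. In fasted replicate 3, Hoxc11 was at 0.40 and Hoxd10 at 0.596 of the median of the others, where 2.16% of genes were at least 1.5-fold below. The share at least 1.5-fold below was 2.48% in fasted replicate 1, 1.91% in fasted replicate 2, 1.95% in fed replicate 1, 1.72% in fed replicate 2 and 1.7% in fed replicate 3. The share at least 1.5-fold above was 1.24% in fasted replicate 1, 1.46% in fasted replicate 3, 1.38% in fed replicate 1, 3.14% in fed replicate 2 and 1.98% in fed replicate 3. The remaining ratios past 1.5-fold in either direction were Hoxc11 in fed replicate 1, at 0.565, and Hoxc5 in fed replicate 2, at 1.55.

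**Figure D4:**
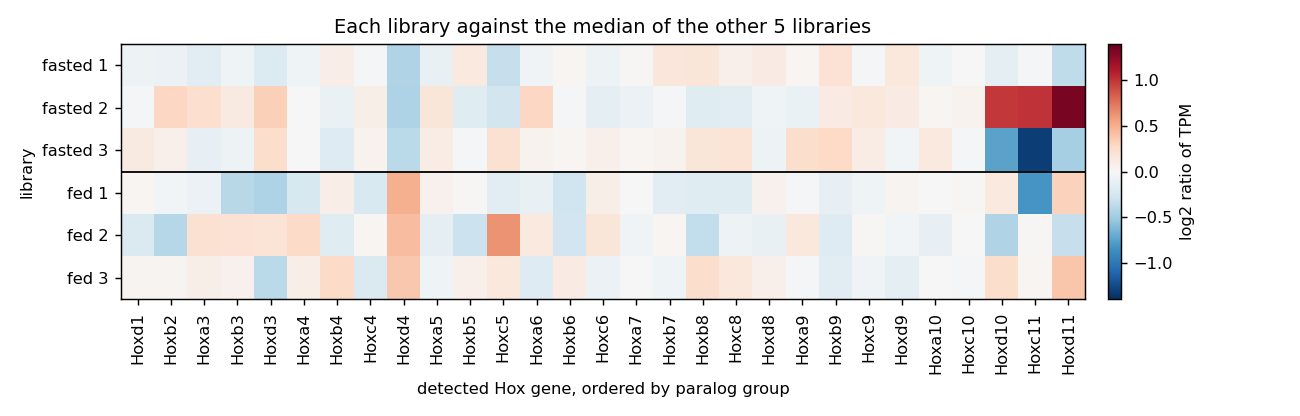
Log2 ratio of each library's TPM to the median of the other 5 libraries for the 29 detected Hox genes, ordered by paralog group; red is above and blue below, with the fasted libraries in the upper rows. The last columns, Hoxd10, Hoxc11 and Hoxd11, hold the strongest colours, red in fasted replicate 2, and Hoxd4 is blue in all fasted rows and red in all fed rows.

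A further transcript of the same region moved with them. Gm28309 (chr2:74683446-74694194, plus strand), a processed transcript that runs across Hoxd11 and Hoxd10, had 7.04, 14.3 and 4.64 TPM in fasted libraries and 8.81, 7.09 and 8.40 TPM in fed libraries. It shares 10.8% of the exonic bases of Hoxd11 and 5.7% of those of Hoxd10 on the same strand, so reads of the 3 genes can be split uncertainly. Hoxc11 shares no exonic base with another gene. Among marker genes of other neurons, Slc5a7, the choline transporter, was also highest in fasted replicate 2, with 1.36, 2.35 and 1.29 TPM in fasted libraries and 1.51, 1.44 and 1.27 TPM in fed libraries. Chat, the enzyme that makes acetylcholine, was at 0.0152 TPM or less in every library, and the part of Slc5a7-expressing cells in the posterior values was not tested. The labels do not say which of the levels L4 to L6 each library drew on.

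The sequences just upstream of Hoxd11 and Hoxd10 are shown because these neighbours moved together in 1 library. They are RefSeq promoter windows (GRCm38.p6) of 250 bases before to 50 after an annotated start, on the plus strand, and capitals mark a motif match. Hoxd11 has 2 annotated starts, and Hoxc11 is not in the table used.
Hoxd11 upstream start, chr2:74679308-74679607: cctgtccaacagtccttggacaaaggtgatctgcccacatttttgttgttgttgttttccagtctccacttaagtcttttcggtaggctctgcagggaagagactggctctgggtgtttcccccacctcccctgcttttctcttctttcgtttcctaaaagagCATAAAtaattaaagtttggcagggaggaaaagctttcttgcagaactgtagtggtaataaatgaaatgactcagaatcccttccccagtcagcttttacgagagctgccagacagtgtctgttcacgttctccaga
Hoxd11 downstream start, chr2:74682073-74682372: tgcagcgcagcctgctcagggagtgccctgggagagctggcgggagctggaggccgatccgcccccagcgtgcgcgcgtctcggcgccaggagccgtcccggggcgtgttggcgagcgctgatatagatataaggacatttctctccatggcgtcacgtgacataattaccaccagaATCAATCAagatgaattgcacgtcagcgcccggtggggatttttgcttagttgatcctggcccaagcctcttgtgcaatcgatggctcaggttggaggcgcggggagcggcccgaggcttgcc
Hoxd10, chr2:74691641-74691940: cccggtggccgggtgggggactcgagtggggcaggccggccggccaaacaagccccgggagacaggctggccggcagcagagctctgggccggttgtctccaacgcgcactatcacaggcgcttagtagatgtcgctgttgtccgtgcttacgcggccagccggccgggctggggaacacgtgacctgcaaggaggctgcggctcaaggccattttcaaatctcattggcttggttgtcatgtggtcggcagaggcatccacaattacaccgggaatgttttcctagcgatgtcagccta

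Windows of all Hox genes in the table, 24 windows of 22 genes, were searched on both strands for TTTATG, the form bound by posterior Hox proteins, TGATTNAT, the form bound by Hox and Pbx proteins together, and TATAAA, the TATA box. The capitals in the first Hoxd11 window are TTTATG read from the opposite strand, and those in the second are TGATTNAT read from the opposite strand. TTTATG occurred in 5 of 24 Hox windows (20.8%) and in 11.9% of all 32851 windows of this length. TGATTNAT occurred in 2 of 24 (8.33%) against 3.22% of all windows, and TATAAA in 4 of 24 (16.7%) against 13.62%. The 2 Hoxd11 windows differ in base composition, with 45.7% G and C in the upstream window and 62.0% in the downstream window, and the Hoxd10 window had 62.7%. The median over Hox windows was 57.7%, against 52.7% over all windows. A CpG count above 0.6 of that expected from base composition was found in 12 of 24 Hox windows (50%) and in 35.8% of all windows. Such matches describe letters only and are not binding sites.

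Fasted and fed libraries were compared gene by gene with limma, a linear model with spread shared across genes, on log2(TPM + 1) over all 15097 tested genes, with Benjamini-Hochberg adjustment and a threshold of 0.05. Of the 29 Hox genes, 0 passed, where 0.00662% of all tested genes did (1 gene). At an unadjusted p under 0.05 there were 2 Hox genes, Hoxb9 and Hoxd4, against 9.94% of all genes. The fold change was above 0, meaning higher in fasted libraries, for 23 Hox genes and below 0 for 6, and it was above 0 for 62.5% of all genes. The median log2 fold change was 0.067 for the Hox genes and 0.031 for all genes.

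That split depends on the scaling. With median-of-ratios scaling, TMM-type scaling or TPM rescaled without mitochondrial genes, 19 Hox genes were above 0 and 10 below, and the share of all genes above 0 was 52.9, 53.8 and 50.3%. Genes of the mitochondrial genome took 4.83 to 5.24% of TPM in fasted libraries and 5.71 to 8.995% in fed libraries. The summed Hox TPM was 383.2, 384.6 and 392.4 in fasted libraries and 370.4, 363.6 and 380.5 in fed libraries, a log2 ratio of group means of 0.058. Without mitochondrial genes in the total, this log2 ratio was 0.025.

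**Figure D5:**
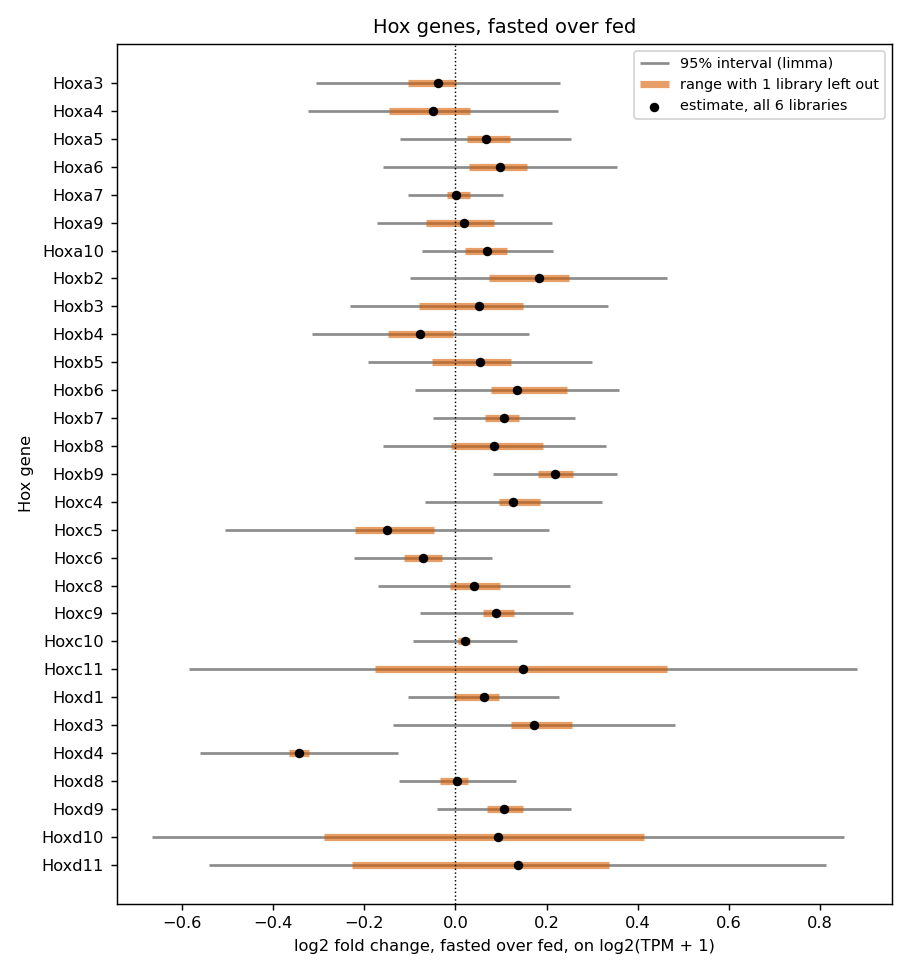
Log2 fold change, fasted over fed, on log2(TPM + 1) for the 29 detected Hox genes by cluster and paralog group; black points are estimates from all 6 libraries, grey lines 95% intervals from limma and orange bars the range when 1 library is left out. The intervals of Hoxb9 and Hoxd4 do not reach 0 before adjustment, and those of Hoxc11, Hoxd10 and Hoxd11 are the widest.

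Hoxb9 (chr11:96271457-96276595), a trunk gene that with its paralogs also acts in mammary gland development, had 18.6, 17.5 and 19.6 TPM in fasted libraries and 16.2, 15.4 and 15.8 TPM in fed libraries. In these gene totals the groups do not overlap, which held with fasted values higher for 12.7% of all tested genes. On the log2 scale the fold change was 0.22 ± 0.06 (SE), with an unadjusted p of 0.0064 and a limma adjusted p of 0.42. Leaving out each library in turn gave log2 fold changes from 0.18 to 0.26, and the other alternatives gave 0.14 to 0.23. The most abundant Hoxb9 transcript had 18.6, 14.8 and 19.2 TPM in fasted libraries and 16.2, 15.1 and 15.8 TPM in fed libraries, with overlap. That transcript made up 96.8% of the gene, and the other one had 2.68 TPM in fasted replicate 2.

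Hoxd4 (chr2:74711929-74729160), which patterns the hindbrain border and neck vertebrae, had 2.34, 2.33 and 2.42 TPM in fasted libraries and 3.41, 3.25 and 3.14 TPM in fed libraries. Here too the groups do not overlap, which held with fasted values lower for 5.07% of all tested genes. The log2 fold change came to -0.34 ± 0.09 (SE), with an unadjusted p of 0.0069 and a limma adjusted p of 0.42. Its most abundant transcript alone gave -0.18 with an unadjusted p of 0.42. On the same strand 52.3% of its exonic bases are shared with Hoxd3 or Gm28230, and 62.3% of those of Hoxd3 with Hoxd4 or Gm28230. Hoxd3 had 1.68, 2.11 and 1.98 TPM in fasted libraries and 1.41, 1.91 and 1.47 TPM in fed libraries, with overlap, so the division of reads between the 2 genes is uncertain.

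The 95% intervals show how large a difference these libraries leave possible. Hoxa7 had a log2 fold change of 0.00054 with an interval from -0.10 to 0.10, and Hoxc10 one of 0.021 with an interval from -0.09 to 0.13. At the other end, Hoxd10 had 0.09 with an interval from -0.67 to 0.85, and Hoxc11 0.15 with one from -0.58 to 0.88. Without fasted replicate 2 the log2 fold changes were -0.29 for Hoxd10, -0.23 for Hoxd11 and -0.18 for Hoxc11, so the sign for these 3 genes is set by that library. For Hoxd10, leaving out fed replicate 2 also turned the sign, to -0.043.

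The transcripts behind a gene total differ in kind. Of the Hoxa10 total, 48.0% came from transcripts annotated as not coding for protein, chiefly a processed transcript with 12.01, 16.6 and 17.1 TPM in fasted libraries and 15.0, 15.8 and 13.8 TPM in fed libraries. The share was 62.3% for Hoxd11, 43.4% for Hoxb3, 39.6% for Hoxc6 and 34.2% for Hoxc8. For Hoxa9, 2 protein-coding transcripts made up 55.3 and 39.8% of the total. With protein-coding transcripts alone, an alternative added after these shares were seen, the clusters held 33.5% (a), 28.2% (b), 13.2% (c) and 25.1% (d). Antisense genes overlap several members on the opposite strand, such as Hoxb3os with 52.9% of the exonic bases of Hoxb3 and Hoxaas3 with 20.4% of those of Hoxa7. The library kit marks strand, but the sources used here do not say whether quantification used it.

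The clusters also hold microRNA genes, which are shown because they fall into families shared between clusters. Their mature sequences are from RefSeq (GRCm38.p6), written as RNA, with the seed, bases 2 to 8, in capitals.
miR-10a-5p (Mir10a, chromosome 11): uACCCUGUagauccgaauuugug
miR-10b-5p (Mir10b, chromosome 2): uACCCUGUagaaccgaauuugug
miR-196a-5p (Mir196a-1, chromosome 11, and Mir196a-2, chromosome 15): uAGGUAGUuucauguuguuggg
miR-196b-5p (Mir196b, chromosome 6): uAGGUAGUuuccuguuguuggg
The first pair shares one seed and the second pair another, and both families are known to target Hox messages. Mature microRNAs are not measured by libraries of polyadenylated RNA. The row of the Mir196a-1 gene had 11.7, 13.4 and 30.9 TPM in fasted libraries and 17.5, 19.6 and 10.3 TPM in fed libraries, with overlap. Its annotation spans only 102 bases, and at such a length few reads can give a high TPM. The level of Mir196a-1 is therefore not set beside those of the Hox genes. Mir10a had 2.53 TPM in fasted replicate 1 and 2.37 TPM in fed replicate 1 and was listed at 0 elsewhere, and Mir10b, Mir196a-2, Mir196b and Mir615 were listed at 0 throughout.

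Of 18 listed non-coding genes of the clusters, 16 were found in the table and 6 were detected, and 0 of the 6 passed the test. Hoxd3os1 had 12.1, 18.6 and 12.5 TPM in fasted libraries and 10.3, 14.5 and 13.9 TPM in fed libraries, with overlap and again with fasted replicate 2 highest. Haglr and Hotairm1, which is known from blood cell development, averaged 9.74 and 9.10 TPM in fasted libraries and 10.2 and 10.4 TPM in fed libraries. Hoxb3os averaged 2.79 TPM in fasted libraries and 3.21 TPM in fed libraries. The smallest unadjusted p-values among the 6 were 0.20 for Hotairm1 and 0.25 for Hoxb3os. Hotair, the antisense gene between Hoxc11 and Hoxc12, lay between 0.0458 and 0.433 TPM. Of all 46 other genes annotated inside the clusters, 13 were detected and 0 passed.

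Proteins that work with Hox proteins or act on their genes were measured as lists, and 0 members of any of them passed the adjusted threshold. The TALE homeodomain proteins Pbx, Meis and Pknox bind DNA together with Hox proteins, and all 9 were detected, 8 with fold changes above 0 and 1 below, with a median log2 fold change of 0.09, where 62.5% of all tested genes were above 0 with a median of 0.031. Under the other scalings, where 50.3 to 53.8% of all genes were above 0, 6 or 7 of the 9 were. Pbx2, Pknox2 and Meis3 averaged 47.2, 41.2 and 36.4 TPM in fasted libraries and 43.8, 40.5 and 32.1 TPM in fed libraries. Pbx3 averaged 12.6 TPM in fasted libraries and 10.8 TPM in fed libraries. The smallest unadjusted p-values were 0.021 for Pbx3 and 0.023 for Meis3, both with a limma adjusted p of 0.48.

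Polycomb complexes keep Hox genes silent outside their domains and Trithorax complexes keep them active. Of 31 Polycomb genes 30 were detected, 20 above 0 and 10 below, with a median of 0.06, and all 16 Trithorax and H3K27 demethylase genes were detected, 15 above 0 and 1 below, with a median of 0.09. Over all tested genes 62.5% were above 0, with a median of 0.031. Under the other scalings 17 or 18 of 30 Polycomb genes and 11 or 12 of 16 Trithorax genes were above 0. The share of all genes above 0 was then 50.3 to 53.8%. The highest Polycomb genes, Rbbp7, Cbx6 and Rbbp4, averaged 141, 122 and 84.3 TPM in fasted libraries and 128, 115 and 75.01 TPM in fed libraries. Pcgf5, a subunit of Polycomb complex 1, averaged 3.99 TPM in fasted libraries and 5.21 TPM in fed libraries. The smallest unadjusted p-values of the list were 0.013 for Rbbp7 and 0.023 for Pcgf5. Among Trithorax genes, Psip1, a chromatin reader that works with MLL, averaged 158 TPM in fasted libraries and 143 TPM in fed libraries. The core subunits Dpy30 and Rbbp5 averaged 87.3 and 44.7 TPM in fasted libraries and 86.9 and 43.9 TPM in fed libraries, and Hcfc1 averaged 30.9 TPM in fasted libraries and 28.8 TPM in fed libraries. The smallest unadjusted p-values of this list were 0.044 for Psip1 and 0.074 for Hcfc1.

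Retinoic acid sets anterior Hox borders in embryos. Of 18 genes for its receptors and metabolism 16 were detected, 7 above 0 and 9 below under each scaling, with a median of -0.02 as deposited. The receptors Rxrb, Rarg and Rxra had 44.4, 28.4 and 17.1 TPM in fasted libraries and 44.5, 27.3 and 16.7 TPM in fed libraries. Dhrs3, which returns retinaldehyde to retinol, had 8.92 TPM in fasted and 11.7 TPM in fed libraries, a log2 fold change of -0.36 with an unadjusted p of 0.0017 and a limma adjusted p of 0.41. Aldh1a1, which makes retinoic acid, had 14.4 TPM in fasted and 16.3 TPM in fed libraries, with an unadjusted p of 0.040.

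Relatives of the Hox genes outside the clusters were mostly at or near 0. Of 11 caudal, ParaHox, Evx and related homeobox genes, 4 were listed at 0 in all libraries, 6 did not exceed 0.13 TPM in any library, and Gbx1 had 1.81 TPM in fasted and 2.12 TPM in fed libraries. Evx1 and Evx2, which lie next to the posterior ends of clusters a and d, did not exceed 0.0122 TPM. Genes that flank the clusters were expressed, with 12 of 16 detected, 11 of them above 0 and 1 below, and a median of 0.09, again where 62.5% of all genes were above 0. Under the other scalings 10 of the 12 flanking genes were above 0, where 50.3 to 53.8% of all genes were. Hnrnpa1, Tax1bp1, Snx10 and Hibadh averaged 296, 187, 162 and 74.4 TPM in fasted libraries and 282, 170, 157 and 67.8 TPM in fed libraries. The smallest unadjusted p-values were 0.018 for Hibadh and 0.022 for Tax1bp1.

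The libraries were alike as a whole, with Spearman correlations of 0.983 to 0.992 and 14961 to 15218 genes at 1 TPM or more. Sensory neuron markers were high, all 12 listed genes being detected, with sums of 17999 to 18874 TPM in fasted libraries and 16437 to 18236 TPM in fed libraries, and Pou4f1, a factor of sensory neuron identity, at 226 to 248 TPM over all libraries. Markers of other cells were present too. In fasted libraries, marker sums were 5439 to 5654 TPM for satellite glia, 7732 to 8561 TPM for Schwann cells, 721 to 788 TPM for fibroblasts and 62.5 to 74.8 TPM for endothelium. In fed libraries they were 5439 to 6152 TPM for satellite glia, 7439 to 8294 TPM for Schwann cells, 706 to 776 TPM for fibroblasts and 73.6 to 88.7 TPM for endothelium. Skeletal muscle markers summed to 48.2 to 204.9 TPM in fasted libraries and 183.1 to 2532 TPM in fed libraries, the top value being fed replicate 2. Macrophage markers summed to 32.02 to 38.5 TPM in fasted libraries and 49.3 to 58.7 TPM in fed libraries, and erythrocyte markers to 1715 to 3277 TPM in fasted libraries and 1284 to 1564 TPM in fed libraries. Markers of bone marrow blood progenitors, which also use Hox genes, summed to 38.9 to 43.96 TPM in fasted and 34.6 to 37.7 TPM in fed libraries, chiefly Kit, which other cells of the ganglion can also express, while Mpo and Elane reached at most 2.40 TPM. Which of these cells each Hox message came from was not tested.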

How the data were processed

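The authors deposited TPM for each of 140992 transcripts in 3 fasted and 3 fed libraries, each summing to 1000000. Libraries were prepared with a stranded kit for polyadenylated RNA, per the labels' protocols. The submitters' processing notes name Salmon 1.6.0, Trim Galore 0.6.6, FastQC 0.11.9 and DESeq2 1.34.0, and as builds mm10 and GRCm38. Which annotation release served is not stated there. TPM keep no depth, so no count test was run.

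From there, TPM were summed per gene symbol, genes whose mean reached 1 TPM were kept, and log2(TPM + 1) was fitted with limma 3.58.1 in R 4.3.3 (group as the only term, intensity trend, two-sided, Benjamini-Hochberg over 15097 genes). The pseudocount of 1 understates changes of low genes. Coordinates, transcript types and exon overlap came from GENCODE M21, which holds all 86 Hox transcripts; promoters and microRNAs came from RefSeq tables (22 of 39 Hox genes matched). The fit was checked on simulated data. Figures used Python 3.11.15 and matplotlib 3.10.9.

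The members and the 7 gene and 10 marker lists were chosen with earlier results of these data known. The Hox genes are described by name, apart from results not reported here; of each pathway list, the 3 members with the highest mean and the 2 with the smallest p were named. Others, among them Gm28309, Slc5a7, Chat, Hotair, Pou4f1, Kit, Mpo, Elane, Evx1 and Evx2, were named after their values were seen. Replicate numbers were not taken as pairs. Alternatives were pseudocounts of 0.1 and 0.5, no minimum, a minimum of 5 TPM, other scalings, single or protein-coding transcripts, a replicate block and leaving out each library.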

Additional observations from a re-analysis of the deposited data

How the results depend on the processing

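No Hox gene passed the adjusted threshold under any alternative run, and the smallest limma adjusted p of the 29 detected Hox genes was 0.34. Without a minimum level 29760 genes were tested, 34 of them Hox genes. Of these 34, 1 was higher and 2 were lower in fasted libraries at an unadjusted limma p under 0.05. Over all genes, where 1 passed, 2 passed with a pseudocount of 0.1 or 0.5, 0 passed without a minimum level (with 1281 genes higher in fasted libraries and 802 lower at an unadjusted p under 0.05), 0 passed with protein-coding transcripts alone (1029 and 458), and 1 to 6 passed in leave-one-out fits (6 without fed replicate 3, 4 without fasted replicate 3, 3 without fed replicate 1). At an unadjusted p under 0.05, 1015 genes were higher in fasted libraries and 486 lower, against 623 and 691 with median-of-ratios scaling, 641 and 650 with TMM-type scaling and 557 and 756 without mitochondrial genes. Same-numbered fasted and fed libraries correlated at 0.093, 0.11 and 0.066 after group means were removed, and the other pairs at -0.12 to 0.039. Removing the means of 3 libraries ties these small values to each other, so they cannot tell whether replicates are paired. With the replicate block 1 gene and 0 Hox genes passed, and 1159 and 565 genes had an unadjusted p under 0.05.

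The log2 ratio of summed Hox TPM was 0.025 without mitochondrial genes. Cluster shares were 29.8% (a), 29.1% (b) and 26.7% (d) with the most abundant transcript, and 33.5% (a), 28.2% (b), 13.2% (c) and 25.1% (d) with protein-coding transcripts. With the most abundant transcript, the shares of 8 paralog groups moved by more than their SD between libraries. Of 454 pairs of a Hox gene and an alternative, 40 changed the sign of the fold change, and 15 of 29 genes kept their sign throughout. With median-of-ratios, TMM-type and mitochondria-free scaling in that order, the log2 fold changes were -0.025, -0.023 and -0.032 for Hoxa7, -0.0066, -0.0046 and -0.013 for Hoxa9, -0.0040, -0.0021 and -0.0099 for Hoxc10, and -0.021, -0.019 and -0.027 for Hoxd8. With the most abundant transcript and with protein-coding transcripts they were -0.048 and -0.064 for Hoxa7, -0.11 and -0.13 for Hoxb3, and -0.018 in both for Hoxc8. Leaving out each library in turn gave signs that turned for Hoxa3 (-0.10 to 0.0014), Hoxa4 (-0.15 to 0.033), Hoxa7 (-0.019 to 0.032), Hoxa9 (-0.065 to 0.085), Hoxb3 (-0.081 to 0.15), Hoxb5 (-0.050 to 0.12), Hoxb8 (-0.0092 to 0.19), Hoxc8 (-0.013 to 0.099), Hoxc11 (-0.18 to 0.46), Hoxd1 (-0.0034 to 0.096), Hoxd8 (-0.034 to 0.027), Hoxd10 (-0.29 to 0.41) and Hoxd11 (-0.23 to 0.34). The cause of these changes was not tested. Since TPM keep no depth, the counting error of genes near 1 TPM is unknown.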
